A study of Homo sapiens with 6 samples.

Results

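The genes described here are 8 neuroendocrine marker genes, ENO2, CHGA, CHGB, SYP, SYT4, NTS, SCG3 and SCG5, and REST, the gene of a transcriptional repressor of neuronal genes. They were picked by symbol from a table of 19571 genes, and all 9 were found there. The samples were LNCaP cells, a human prostate cancer line that depends on the androgen receptor and has luminal features. The 3 KDM4B-labelled libraries (replicates 1, 2 and 4) came from cells with stable overexpression of Flag-tagged wild-type KDM4B, a histone lysine demethylase. The 3 vector libraries (replicates 1, 2 and 3) came from cells with the plenti6 control plasmid. The titles of the KDM4B-labelled libraries share a suffix that the vector titles lack. Anything this suffix stands for cannot be told apart from the construct. Both lines were grown in RPMI and spent their last 3 days in medium with 10% CFBS, an abbreviation that the labels do not spell out. Each construct is a stable line, and the labels name no separate clones or cultures, so the p-values rest on differences among these libraries alone, which may be technical.

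Neuroendocrine cells store peptides in dense core vesicles and release them when calcium rises. Granins (CHGA, CHGB, SCG3) pack the cargo, SCG5 is a chaperone of the prohormone convertase PCSK2, neurotensin (NTS) is a cargo peptide, and SYP and SYT4 sit in vesicle membranes. ENO2 is the neuronal form of the glycolytic enzyme enolase. REST binds the RE1 element and, with the corepressors RCOR1 and SIN3A, keeps many neuronal genes silent outside neurons. In prostate cancer, low androgen receptor activity is known to accompany a neuroendocrine state in part of the tumours, and LNCaP cells are a common model of that change.

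The gene of the construct differed little between the groups. KDM4B measured 26.3, 27.2 and 25.8 FPKM (fragments per kilobase of transcript, scaled to library size) in the KDM4B-labelled libraries and 24.7, 25.2 and 25.3 FPKM in the vector libraries. The log2 fold change was 0.07 (SE 0.0395; limma, adjusted p = 0.113) as deposited and 0.31 (SE 0.034; adjusted p = 1.93e-05) after scaling, so every direction below rests on the label. Ribosomal RNA took 8.14% to 10.5% of the FPKM sum in the KDM4B-labelled libraries and 0.144% to 0.473% in the vector libraries, with vector replicate 1 the highest of those. The log2 fold change of the median tested gene was -0.22, and dividing each library by its median of ratios (0.904 to 0.942 against 1.09) moved it to 0. The members are therefore given as deposited and, where it bears on a result, after scaling. Luminal markers were present in all libraries, with summed levels of 10 genes of 1812 to 1874 FPKM against 4403 to 4584 FPKM. Of 4 basal markers 2 were listed, at sums of at most 0.46 FPKM. The 5 immune markers summed to 4.38 to 5.53 against 4.51 to 5.24 FPKM, with PTPRC at or below 0.06 FPKM. Of 4 endothelial markers 3 were listed, at 0.4 to 0.46 against 0.85 to 1.01 FPKM. Of 5 fibroblast and smooth muscle markers 4 were listed, at 12.0 to 16.2 against 5.69 to 6.43 FPKM. ACTA2 made up most of that last sum, at 9.03 to 13.3 against 3.23 to 4.0 FPKM, while COL1A2 was at or below 0.02 FPKM. The part of these differences in the results below was not tested, except where a value says otherwise.

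The promoter letters are shown first because REST acts through a DNA element. RefSeq windows of GRCh38.p14, 250 bases before to 50 bases after the start site, were found for 8 of the 9 genes, with 2 windows for REST. The RE1 element was searched as its left arm CAGCACC and its right arm GGACAGC on both strands, with no overlap between them. The left arm was in 7.75% and the right arm in 6.03% of all 35116 windows. Both were on 1 strand, at any distance and in any order, in 0.493%. Among the 8 genes with windows only SCG3 held both, 8 bases apart and just after its start site. Bases outside the windows were not searched, so elements further away would be missed. REST held the right arm in 1 of its windows, and SYT4 held the left arm on the opposite strand. The cAMP response element TGACGTCA, in 1.85% of windows, was in CHGA alone of the members. The run TATATA, in 3.99% of windows, was in CHGA and NTS. Matches are in capitals, written 5′ to 3′ on the gene's strand.
SCG3, chr15:51681509-51681538, plus strand: acttCAGCACCcacagggcGGACAGCgctc
REST, chr4:56908729-56908758, plus strand: cctgcggggctGGACAGCgatttctgcgct
CHGA, chr14:92923085-92923114, plus strand: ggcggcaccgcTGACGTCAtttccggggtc
NTS, chr12:85874250-85874279, plus strand: catcctcctgctTATATATATAggggaatg
SYT4, the 250 bases before the start, chr18:43277491-43277740, minus strand: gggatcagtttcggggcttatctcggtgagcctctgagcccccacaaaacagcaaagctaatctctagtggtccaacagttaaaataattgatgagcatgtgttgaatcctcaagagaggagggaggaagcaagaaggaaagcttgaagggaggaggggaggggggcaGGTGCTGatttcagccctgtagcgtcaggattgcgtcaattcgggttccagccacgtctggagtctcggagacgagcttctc
A match is a description of letters and shows no binding.

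Only 3 of the 9 genes, SYT4, ENO2 and REST, reached the mean of 1 FPKM needed for the main test. As deposited 1 of the 3 was higher (SYT4), against 13.4% of 12148 tested genes, and 1 was lower (REST), against 60.3%. After scaling 2 were higher (SYT4 and ENO2) and 0 lower, where 34.1% of 12139 tested genes were higher and 33.9% lower. The levels of the 2 groups did not overlap for 2 of the 3 as deposited, beside 76.3% of all tested genes. After scaling it was again 2 of the 3, SYT4 and ENO2, beside 71.7% of all tested genes. Below the filter 2 of 6 members, SYP and NTS, did not overlap, against 23.7% of the 7164 low genes with any value above 0.

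**Figure D1:**
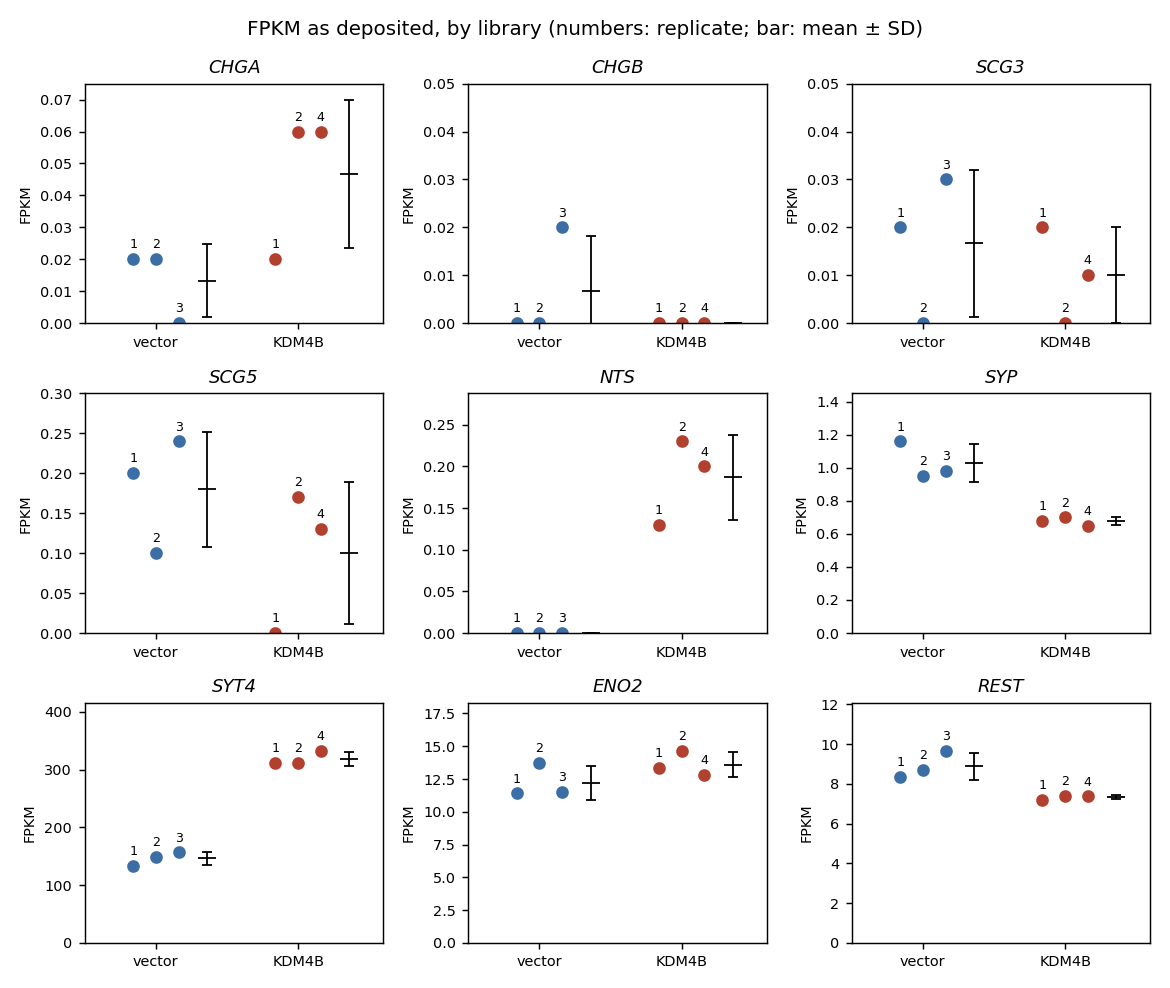
FPKM as deposited (vertical axes, each from 0 and each with its own range) of the 9 genes in 3 vector libraries (blue) and 3 KDM4B-labelled libraries (red), numbered by replicate, with the mean ± SD beside each group and bars that reach below 0 ending there. SYT4 stands at 312 to 332 FPKM against 133 to 157 FPKM, while the CHGA, CHGB, SCG3 and SCG5 panels stay at or below 0.24 FPKM.

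The granins were at or near 0 in both groups. CHGA, chromogranin A, the standard serum and tissue marker of neuroendocrine tumours, was listed at 0.02, 0.06 and 0.06 FPKM in the KDM4B-labelled libraries and at 0.02, 0.02 and 0 FPKM in the vector libraries. The groups met at 0.02 FPKM, so they overlapped as deposited. After scaling they did not, at 0.0221, 0.0637 and 0.0656 against 0.0184, 0.0183 and 0 FPKM, where the nearest values both come from a deposited 0.02. CHGB, chromogranin B, was listed at 0 in all 3 KDM4B-labelled libraries and in vector replicates 1 and 2, and at 0.02 FPKM in vector replicate 3. SCG3, secretogranin III, which links granin aggregates to the vesicle membrane, was listed at 0.02, 0 and 0.01 FPKM against 0.02, 0 and 0.03 FPKM. SCG3 is the member with both RE1 arms printed above.

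SCG5, known as 7B2, was listed at 0, 0.17 and 0.13 FPKM in the KDM4B-labelled libraries and at 0.2, 0.1 and 0.24 FPKM in the vector libraries. The groups overlapped, with KDM4B replicate 1 the lowest of all 6. Exact permutation tests on the means gave two-sided p = 0.3 for CHGA, 1.0 for CHGB, 0.8 for SCG3 and 0.4 for SCG5, and 3 libraries against 3 cannot give less than 0.1. Values are rounded to 0.01 FPKM, so those of CHGA, CHGB and SCG3 are a few rounding steps above 0, and no difference between the groups was detectable at this depth.

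As deposited, NTS was the member with the lowest level whose groups did not overlap. Neurotensin transcripts were listed at 0.13, 0.23 and 0.2 FPKM in the KDM4B-labelled libraries and at 0 in all 3 vector libraries. No fold can be given against a group listed at 0. The exact permutation test gave a two-sided p = 0.1, the smallest that 3 against 3 allows. With the filter dropped, limma called NTS higher (log2 fold change 0.25 on the log2(FPKM + 1) scale, adjusted p = 0.000791), and it did so after scaling too (adjusted p = 0.000721). NTS entered those fits only through the KDM4B-labelled libraries, and its vector values did not vary, so these p-values are no support for a rise. As deposited, the fit without the filter called 2132 genes higher and 7738 lower, of those with any value above 0 in the table of 19571. The mean of NTS over the 6 libraries was at the 22.5th percentile of the table.

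Of the neurotensin receptors, SORT1 (sortilin, which also sorts cargo in the Golgi) fell from 5.04 ± 0.213 to 3.75 ± 0.137 FPKM (SD, n = 3 each; log2 fold change -0.35, and -0.15 after scaling; limma, adjusted p = 0.000154 and 0.0302). NTSR1, the high-affinity receptor, was under the filter at 0.76, 0.65 and 0.83 FPKM against 0.44, 0.71 and 0.57 FPKM, and its groups overlapped.

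SYP, synaptophysin, a membrane protein of small vesicles that pathologists stain beside CHGA, was lower in the KDM4B-labelled libraries. Its levels were 0.68, 0.7 and 0.65 FPKM there and 1.16, 0.95 and 0.98 FPKM in the vector libraries, 0.657 times the vector mean. The groups did not overlap, on either scale. The exact permutation test gave a two-sided p = 0.1. With the filter dropped, limma gave a log2 fold change of -0.27 (adjusted p = 0.00389) as deposited and -0.16 (adjusted p = 0.0352) after scaling. As deposited, that fit called 7738 genes lower, of those with any value above 0 in the table of 19571. The only splicing event listed for SYP, around an exon of 125 bases, had 2, 1 and 0 reads against 5, 5 and 5 reads. These reads were too few for the count filter, and without it the event missed the threshold (edgeR, log2 fold change -1.98, SE 1.0, adjusted p = 0.117).

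The 4 relatives of SYP that passed the filter were expressed more strongly than SYP, while SYPL2 and SYNGR4 were not. Of 8 genes of the synaptophysin and synaptogyrin family, 7 were in the table and 4 were tested, with 1 higher and 2 lower on both scales (median log2 fold change -0.26, with -0.22 for all genes; -0.03 after scaling). Over all tested genes 13.4% were higher and 60.3% lower (34.1% and 33.9% after scaling). SYPL1, the ubiquitous relative, fell from 41.1 ± 2.18 to 30.4 ± 1.97 FPKM and SYNGR2 from 209 ± 3.22 to 160 ± 8.31 FPKM. SYNGR3, a neuronal synaptogyrin, rose from 1.9 ± 0.397 to 2.54 ± 0.173 FPKM (SD, n = 3 each). Leaving out KDM4B replicate 2, or vector replicate 3, ended the SYNGR3 call and left 0 higher genes in the family.

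SYT4 was the most abundant of the 9 genes and, of the 3 that passed the filter, the only one called in the same direction on both scales. Synaptotagmin 4 is a vesicle membrane protein of the calcium sensor family whose own calcium binding is reduced. It measured 312, 312 and 332 FPKM in the KDM4B-labelled libraries and 133, 149 and 157 FPKM in the vector libraries. Every KDM4B-labelled library lay above every vector library, and the means differed 2.18-fold. The log2 fold change was 1.12 (SE 0.0535; limma, adjusted p = 7.98e-09), and 1.36 (SE 0.0544; adjusted p = 1.37e-08) after scaling, with scaled levels of 345, 331 and 363 against 123, 136 and 143 FPKM. Its mean was at the 98.9th percentile of the table.

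Read counts gave a second readout of SYT4 in the same libraries. The authors' skipped exon table holds 1 event for it, around an exon of 815 bases at chr18:40853545-40854359 as deposited, with the start counted from 1. The event had 21959, 21844 and 20985 reads in the KDM4B-labelled libraries and 8967, 10010 and 10167 reads in the vector libraries. The log2 fold change was 1.37 (SE 0.0398; edgeR quasi-likelihood test, adjusted p = 2.54e-36), where 20.1% of 36440 tested events were higher. Neither of the 2 exons listed for the members lay inside its gene on GRCh38. Of 40605 skipped exons compared with their genes, only 12.5% did. The deposited positions therefore do not follow GRCh38, and the build that they do follow is uncertain. The other 3 event tables (mutually exclusive exons, alternative 5′ splice sites and retained introns) held 0 events of the 9 genes.

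The other synaptotagmins did not share the level of SYT4. Of 17 family members 15 were in the table and 3 were tested. SYT7, a high-affinity calcium sensor of slow exocytosis, fell from 10.9 ± 0.707 to 6.02 ± 0.106 FPKM (SD, n = 3 each; log2 fold change -0.76, and -0.54 after scaling; limma, adjusted p = 2.07e-07 and 6.31e-06). SYT15 measured 1.36 against 1.3 FPKM and was called only after scaling (adjusted p = 0.644 and 0.0395). SYT1, the sensor of fast release in neurons, was at or below 0.03 FPKM in all 6 libraries, and SYT11, the closest relative of SYT4, at or below 0.05 FPKM. These 2, and SCG2, VGF and NCAM1 below, were named after their values were seen.

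ENO2 was expressed at an intermediate level, and its call depended on the scale. It measured 13.4, 14.6 and 12.8 FPKM in the KDM4B-labelled libraries and 11.4, 13.7 and 11.5 FPKM in the vector libraries. The groups overlapped because vector replicate 2 lay above KDM4B replicates 1 and 4. As deposited the log2 fold change was 0.15 (SE 0.0704) and missed the threshold (limma, adjusted p = 0.0805). It passed without vector replicate 2 (0.23, adjusted p = 0.00652) and without KDM4B replicate 4 (0.19, adjusted p = 0.0429), and leaving out any other library gave 0.0966 to 0.157. After scaling the levels were 14.8, 15.5 and 14.0 against 10.5, 12.6 and 10.6 FPKM without overlap, and the log2 fold change of 0.37 (SE 0.067; adjusted p = 0.000629) passed. With ribosomal and small RNA genes left out and each library brought to the same sum it was also 0.37 (adjusted p = 0.000472). Adjusted p-values over all alternatives ran from 0.000472 to 0.255.

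ENO1, the ubiquitous enolase, rose from 617 ± 11.6 to 744 ± 23.0 FPKM (log2 difference 0.27, and 0.51 after scaling; limma, adjusted p = 1.83e-05 and 9.53e-08). ENO3, the muscle form, fell from 9.81 ± 0.537 to 7.17 ± 0.302 FPKM (SD, n = 3 each; log2 fold change -0.40, and -0.19 after scaling; adjusted p = 3.45e-05 and 0.0141). These coding sequences are related, and the sources used here do not say how shared reads were assigned.

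REST was lower in the KDM4B-labelled libraries as deposited, by about as much as the median gene. It measured 7.21, 7.39 and 7.37 FPKM there and 8.33, 8.69 and 9.64 FPKM in the vector libraries, without overlap, at 0.824 times the vector mean. The log2 fold change was -0.25 (SE 0.0559; limma, adjusted p = 0.00187), beside a median of -0.22 over all tested genes. After scaling it was -0.03 (SE 0.0539; adjusted p = 0.65), with levels of 7.98, 7.85 and 8.06 against 7.66, 7.97 and 8.84 FPKM that overlapped. With ribosomal and small RNA genes left out and the sums made equal it was -0.04 (adjusted p = 0.587), and the fall was not called there. Leaving out each library in turn kept the call as deposited (adjusted p = 0.00125 to 0.00949). No splicing event of REST was listed, so its neuronal splice form was not measured.

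The levels of the 9 genes, which FPKM makes comparable per length, spanned the table. SYT4 came first at 133 to 332 FPKM over all 6 libraries, followed by ENO2 at 11.4 to 14.6, REST at 7.21 to 9.64 and SYP at 0.65 to 1.16 FPKM, with no overlap between neighbours. SCG5, at 0 to 0.24 FPKM, and NTS, at 0 to 0.23 FPKM, could not be ordered beyond their spread. CHGA at 0 to 0.06, SCG3 at 0 to 0.03 and CHGB at 0 to 0.02 FPKM also overlapped with each other. Genes of at least 10 FPKM whose log2(FPKM + 1) over the 6 libraries was most like that of SYT4 were TP53INP1, MANEA and PLCB4 (Pearson r = 0.9989, 0.9989 and 0.9987). For REST they were SMCHD1, CUL5 and GCDH (r = 0.9978, 0.9967 and 0.9893). These are descriptions over 6 points in 2 groups that share the scale of their libraries, and 413 of 6523 genes for SYT4 and 202 of 6524 for REST had r above 0.95.

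Vesicle cargo and its processing enzymes, the setting in which granins act, held genes that rose and genes that fell. Of 22 cargo and amine synthesis genes, granins included, 18 were in the table and only 5 were tested, with 1 higher and 3 lower (1 and 2 after scaling), where 60.3% of all tested genes were lower as deposited and 33.9% after scaling. DDC, which makes dopamine and serotonin from their amino acid precursors, rose from 21.2 ± 1.59 to 184 ± 8.76 FPKM. NPPC, the precursor of C-type natriuretic peptide, fell from 13.1 ± 0.304 to 0.823 ± 0.188 FPKM. Its mean in the KDM4B-labelled libraries was under 1 FPKM, so NPPC passed the filter only through the vector libraries. The call of NPPC is therefore no further support for a fall. PCSK1N, an inhibitor of the convertase PCSK1, fell from 7.47 ± 1.41 to 4.6 ± 0.801 FPKM. Galanin (GAL), at 19.8 ± 1.58 against 25.2 ± 2.11 FPKM (SD, n = 3 each), was called lower as deposited but not after scaling (limma, adjusted p = 0.000808 and 0.194). SCG2 and VGF, the other classical granins, were under the filter at 0 to 0.14 and 0.76 to 1.09 FPKM.

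Of 15 prohormone processing genes 9 were tested, with 1 higher and 8 lower as deposited (2 and 4 after scaling) and a median log2 fold change of -0.33, beside -0.22 for all genes (-0.15 after scaling). Among all tested genes 13.4% were higher and 60.3% lower as deposited (34.1% and 33.9% after scaling). CPE, the carboxypeptidase that trims peptides inside dense core vesicles, fell from 39.1 ± 0.66 to 16.0 ± 0.484 FPKM. FURIN, the convertase of the constitutive pathway, fell from 28.4 ± 1.42 to 12.5 ± 0.286 FPKM, and the lysosomal protease CTSB from 64.1 ± 1.35 to 44.2 ± 0.79 FPKM (SD, n = 3 each). PCSK1, a convertase of dense core vesicles, was at or below 0.04 FPKM in every library, and PCSK2, the partner of SCG5, had no row in the table.

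Genes of dense core vesicle release were called lower in 16 and higher in 2 of 21 tested (12 and 3 after scaling), of 33 listed. Of all tested genes 60.3% were lower and 13.4% higher as deposited, and 33.9% and 34.1% after scaling. The list median log2 fold change was -0.35 as deposited, beside -0.22 for all tested genes, and -0.18 after scaling. RAB27A, a small GTPase that docks secretory vesicles, fell from 12.1 ± 0.464 to 4.94 ± 0.245 FPKM, and RAB3B from 13.3 ± 0.461 to 5.72 ± 0.272 FPKM. HID1, a factor of vesicle maturation, fell from 63.6 ± 0.924 to 36.8 ± 0.848 FPKM. SYTL2, a RAB27 effector, rose from 3.65 ± 0.211 to 13.0 ± 0.203 FPKM (SD, n = 3 each), the largest rise of this list on both scales (log2 fold change 1.59, and 1.80 after scaling).

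**Figure D2:**
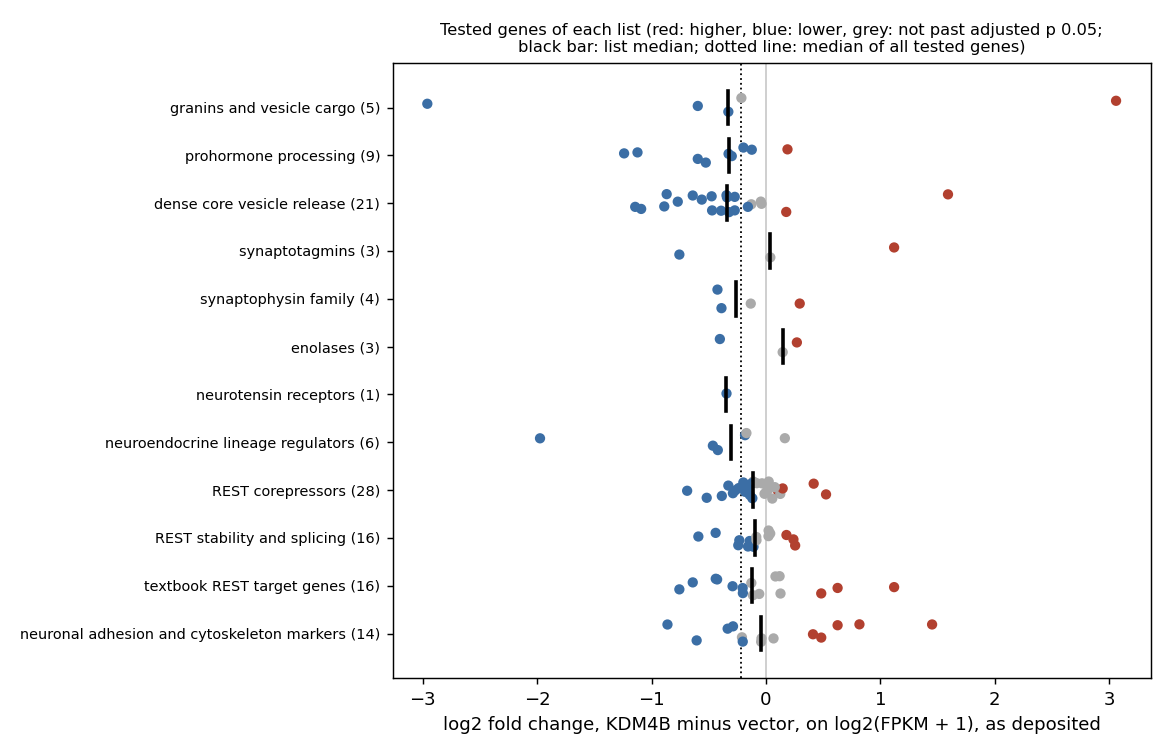
Log2 fold change on log2(FPKM + 1) as deposited (horizontal axis) of each tested gene in 12 lists, members included, with the number tested in brackets. Red and blue points passed the adjusted p of 0.05 upward and downward, black bars mark list medians, and the dotted line marks the median of all tested genes at -0.22; the release list, with 16 blue and 2 red points, has its median at -0.35.

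Most regulators of the neuroendocrine lineage were absent from the table or under the filter. Of 29 listed genes 22 were in the table and 6 were tested, with 0 higher and 4 lower as deposited (1 and 3 after scaling; median log2 fold change -0.30, and -0.13 after scaling). The shares among all tested genes were 13.4% higher and 60.3% lower (34.1% and 33.9% after scaling). Without KDM4B replicate 1 or vector replicate 1, 1 was higher as deposited. INSM1, a zinc finger factor of neuroendocrine cells, had no row in the table. HES6, a helix-loop-helix cofactor that opposes the Notch effector HES1, fell from 70.3 ± 6.46 to 17.1 ± 1.38 FPKM. ONECUT2 fell from 3.81 ± 0.221 to 2.59 ± 0.132 FPKM and the Notch ligand DLL3 from 5.49 ± 0.298 to 3.73 ± 0.603 FPKM. LHX2 measured 2.43 ± 0.182 against 2.03 ± 0.211 FPKM in the KDM4B-labelled libraries (SD, n = 3 each), a fall that was called as deposited only (limma, adjusted p = 0.0448 and 0.873).

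REST corepressors were expressed almost throughout, with genes called in both directions. Of 29 genes 28 were tested, with 4 higher and 14 lower as deposited but 15 higher and 3 lower after scaling (14 and 3 with ribosomal and small RNA left out). Scaling moved the shares of all tested genes too, from 13.4% to 34.1% higher and from 60.3% to 33.9% lower. RCOR1, which joins REST to histone deacetylases, measured 10.3 ± 0.212 against 11.5 ± 0.756 FPKM and was called lower as deposited only (log2 fold change -0.14, and 0.09 after scaling; limma, adjusted p = 0.0337 and 0.14). KDM1A, the demethylase of that complex, measured 41.5 ± 3.13 against 37.9 ± 1.53 FPKM and was called higher after scaling only (adjusted p = 0.058 and 9.69e-05). SMARCA4, a chromatin remodelling ATPase that works with REST, rose from 41.6 ± 1.29 to 55.8 ± 1.34 FPKM on both scales. HMG20B, a DNA-binding subunit of the complex, fell from 152 ± 5.69 to 94.0 ± 8.06 FPKM on both, and CDYL, which links REST to histone methylation, from 10.9 ± 0.58 to 7.34 ± 0.625 FPKM (SD, n = 3 each).

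Genes that control REST stability or splicing were likewise called in both directions on either scale. Of 16 tested, of 18 listed, 3 were higher and 8 lower as deposited (11 and 2 after scaling). For all tested genes the shares were 13.4% higher and 60.3% lower (34.1% and 33.9% after scaling). CSNK1A1, a casein kinase, fell from 129 ± 2.99 to 85.4 ± 1.65 FPKM and the kinase DYRK1A from 12.6 ± 0.525 to 9.0 ± 0.397 FPKM, both on either scale. USP15, a deubiquitinase of REST, rose from 6.72 ± 0.285 to 8.21 ± 0.271 FPKM (SD, n = 3 each). FBXW11, a ubiquitin ligase subunit, was called lower as deposited but not after scaling (log2 fold change -0.23 and 0; limma, adjusted p = 0.000894 and 0.995). SRRM4, the splicing factor that makes the neuronal form of REST, was listed at 0 in all 6 libraries.

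Most genes widely described as REST targets were low, SYT4 being an exception, and the tested ones went both ways. Of 72 listed, 64 were in the table and 16 passed the filter, so 48 had a mean under 1 FPKM. Among the 16, SYT4 included, 3 were higher and 7 lower as deposited (6 and 3 of 17 after scaling). Their median log2 fold change was -0.12 as deposited, beside -0.22 for all tested genes. After scaling it was 0.10, beside 0 for all tested genes. All tested genes had shares of 13.4% higher and 60.3% lower (34.1% and 33.9% after scaling). Neuronal tubulin TUBB3 rose from 5.74 ± 0.164 to 9.4 ± 0.105 FPKM. The release regulator CPLX1 fell from 9.05 ± 0.409 to 5.46 ± 0.475 FPKM and the secreted OLFM1 from 2.03 ± 0.121 to 1.23 ± 0.118 FPKM (SD, n = 3 each).

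Among 14 tested neuronal adhesion and cytoskeleton markers, of 23 listed, 5 were higher and 5 lower as deposited (8 and 2 after scaling). Shares over all tested genes were 13.4% higher and 60.3% lower (34.1% and 33.9% after scaling). UCHL1, a neuronal ubiquitin hydrolase also used as a neuroendocrine marker, rose from 0.387 ± 0.114 to 2.79 ± 0.303 FPKM. Its vector mean was under 1 FPKM, so UCHL1 passed the filter only through the KDM4B-labelled libraries. The call of UCHL1 is therefore no further support for a rise. DPYSL5 rose from 4.41 ± 0.355 to 8.52 ± 0.411 FPKM, and the kinesin KIF5C fell from 10.0 ± 0.545 to 6.22 ± 0.0624 FPKM (SD, n = 3 each). NCAM1 (CD56), a diagnostic neuroendocrine antigen, was at 0.02 to 0.08 FPKM against 0.04 to 0.06 FPKM.

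Over all 12 lists, leaving out the 9 members, 117 of 244 distinct genes were tested. As deposited 15.4% were higher and 57.3% lower, near the shares of all genes given above, and after scaling 39.8% were higher and 28.0% lower. Called in the same direction on both scales were 18 higher and 33 lower of these 117 genes. Among all 12148 tested genes, 1628 were called higher and 4114 lower on both scales. The list genes called include UCHL1 and NPPC, which passed the filter through 1 group only. In a bulk library, more cells of a kind and more RNA per cell cannot be told apart.

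**Figure D3:**
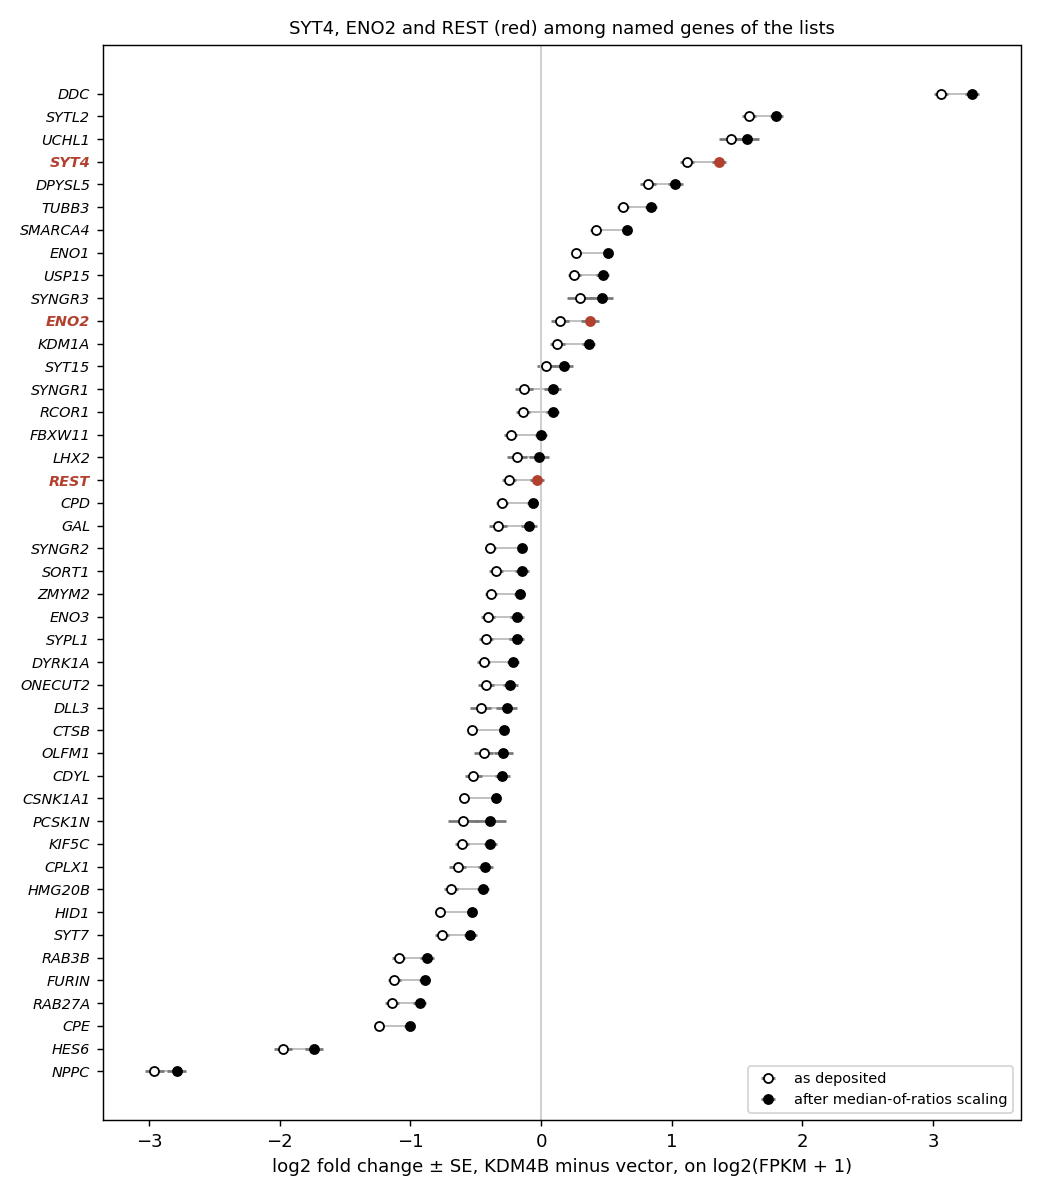
Log2 fold change ± SE on log2(FPKM + 1) of SYT4, ENO2 and REST (red) and of the named list genes, as deposited (open circles) and after median-of-ratios scaling (filled circles), ordered by the scaled value. Scaling moved SYT4 from 1.12 to 1.36, ENO2 from 0.15 to 0.37 and REST from -0.25 to -0.03, and open and filled circles lie on either side of 0 for RCOR1 and SYNGR1.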

How the data were processed

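The authors deposited FPKM per gene, rounded to 2 decimals, and unnormalized read counts per splicing event, per the file headers; each event count joins both splice forms, so it was used as a level. HISAT, StringTie, Cufflinks, GRCh38 and hg38 stand in the submitters' processing notes without roles, and the splicing caller is not stated there. Of 19571 gene IDs, 19400 matched RefSeq. No depth per gene is given; from steps between low FPKM values in 14 to 19 genes, 1 read was worth 0.968 to 1.01 times its median over libraries, and skipped exon counts summed to 14212396 to 17021204 reads. Genes with a mean of at least 1 FPKM were tested with limma 3.58.1 (R 4.3.3) on log2(FPKM + 1) with a mean-variance trend, two-sided, Benjamini-Hochberg adjusted over all tested genes at 0.05; fold changes on this scale understate low genes. Events that reached 10 reads in all 6 libraries were tested with edgeR 4.0.16 (quasi-likelihood, TMM). On simulated data limma recovered 89.0% of log2 changes of 0.5 and 100% of 1 among 12148 genes, and edgeR 67.0% and 90.0% among 36440 events. The simulation changed few features, up or down at random, with a fixed dispersion for the counts. It held no shift of most genes between the groups, so it does not bear on the choice of scale. Scaled FPKM meant division by each library's median of ratios. Replicates differed by more than sampling noise. Members and lists were chosen with earlier results of these data known. Named genes were the members, up to 4 per list with the lowest p, and 12 fixed genes, of which 1 is not reported here. Alternatives tried were a pseudocount of 0.1, no filter, scaling, rescaling without ribosomal and small RNA, no trend, DESeq2 1.42.0 for events, blocking by replicate number and leaving out single libraries.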

Additional observations from a re-analysis of the deposited data

How the results depend on the processing

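SYT4 kept its direction and its call under every alternative run, with log2 fold changes from 1.06 to 1.36 for FPKM and 1.31 to 1.43 for the event counts. Scaling by the median of ratios, or leaving out ribosomal and small RNA genes, ended the REST call (-0.0289 and -0.0359) and gave an ENO2 call (0.373 and 0.366), and it moved the log2 difference of SYP from -0.27 to -0.163 and -0.167. A pseudocount of 0.1 gave -0.537 for SYP, and dropping the filter let SYP be tested (-0.275, called; -0.163 with scaling, a setting added after seeing the data). Under these 2 scalings 4136 and 4009 of all genes were higher and 4114 and 4229 lower, against 1628 and 7323 as deposited, and of the list genes that are no member 47 and 45 were higher and 33 and 35 lower, against 18 and 67. Without 1 library at a time ENO2 ranged from 0.0966 to 0.227. The replicate numbers of the titles do not pair the libraries: only 1 and 2 are shared, and the deviations of same-numbered libraries correlated at -0.0238 and 0.135. A fit with a replicate block takes its effect from replicates 1 and 2 alone, because KDM4B replicate 4 and vector replicate 3 have no same-numbered partner. In that fit ENO2 passed (0.149, limma, adjusted p = 0.0445) and REST stayed called (-0.196, adjusted p = 0.0115). Corepressors called lower went from 14 to 9 there and stability genes from 8 to 5. Depth limits CHGA, CHGB, SCG3, SCG5 and NTS, which lie at or below 0.24 FPKM.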
